A study of Mus musculus with 22 samples.

Results

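Matrix metalloproteinases and their tissue inhibitors were followed across sorted blood cells, pooled organs and unsorted blood of mice. The 10 genes were fixed by name, 7 metalloproteinases (Mmp2, Mmp3, Mmp9, Mmp12, Mmp13, Mmp14 and Mmp19) and 3 inhibitors (Timp1, Timp2 and Timp3), out of 31053 genes counted. The rule uses no measured value, but the members and gene lists were chosen with earlier results of these data known. Levels are CPM, that is, unique molecular identifiers (UMIs, each standing for 1 captured transcript) of a gene divided by all UMIs of the same library or cell class and scaled to 1000000. These levels are not corrected for transcript length and are compared between samples or classes, never between genes.

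Matrix metalloproteinases are zinc enzymes that cut collagens, elastin, laminins and other proteins of the extracellular matrix. Most are secreted as inactive proenzymes and are switched on by proteolysis at the cell surface or outside the cell, and tissue inhibitors of metalloproteinases (TIMPs) block the active site of the mature enzymes. RNA levels therefore describe which cells hold the transcripts, not how active the enzymes are. Fibroblasts are known as producers of gelatinase A and stromelysin, neutrophils as carriers of gelatinase B, and macrophages as the source of metalloelastase.

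The study asked how loss of the sodium leak channel Nalcn changes cells released into the blood, and these libraries came from animals without tumours. Every animal carried Prom1-CreERT2 and Rosa26ZSG, in which a tamoxifen-inducible recombinase driven by the Prom1 promoter turns on the green protein ZsGreen (ZSG), and was Nalcn-wt, Nalcn-het or Nalcn-null. The Nalcn allele is conditional, so deletion is confined to cells in which the recombinase acted and to their descendants. Sorted ZSG+ peripheral blood (ntCZC, non-tumour circulating ZSG+ cells) gave 10 libraries, 2 wt (571 and 608 days old, male), 4 het (551 to 649 days, 3 male and 1 female) and 4 null (551 to 613 days, 1 male and 3 female). Pooled kidney, liver, lung and stomach with epididymis in males or uterus in females (tissue) gave 9 libraries, 5 wt (571 to 654 days, 3 male and 2 female), 2 het (551 days, male) and 2 null (552 days, male, and 611 days, female). A wt library of unsorted peripheral blood mononuclear cells (PBMC) came from a male of 120 days. For 2 more tissue libraries the strain entry contradicted the genotype in the title, and these entered no comparison. The labels name no animals, so p-values measure only the spread between these libraries.

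ntCZC libraries held 50 to 621 barcodes (2501 in all) and 161541 to 2600526 UMIs, tissue libraries 1856 to 27857 barcodes (143502 in all) and 8571019 to 139793927 UMIs, and the PBMC library 752 barcodes and 1422144 UMIs. A level of 1 CPM was therefore at most about 3 UMIs in an ntCZC library. ntCZC wt replicate 3 stood apart with 77 barcodes and a median of 45 genes per barcode. Nalcn itself had 0 UMIs in all 10 ntCZC libraries and 74 UMIs over the 9 tissue libraries, so it could not check the genotype labels. Tissue null replicate 3, labelled female with uterus, held both the female transcript Xist (62874 UMIs) and the Y-linked Ddx3y (762 UMIs), and 792 of its barcodes carried epididymal markers. Barcodes shared between libraries were found in 127 of 231 pairs, at most 226 barcodes or 2.597% of the smaller library, and in 0 pairs of ntCZC libraries.

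Mmp3, Mmp12 and Mmp13 belong to the metalloproteinase cluster of mouse chromosome 9 (build mm10, GENCODE vM21). Mmp13 spans chr9:7272514-7283331, Mmp12 chr9:7344381-7369499 and Mmp3 chr9:7445822-7455975, all on the plus strand. Their 250 bases of sequence before each RefSeq start (GRCm38.p6, 5′ to 3′) are shown because Mmp3 peaked in fibroblasts and its neighbours Mmp12 and Mmp13 in macrophages. Capitals mark matches to TGANTCA, the letters of the AP-1 element, searched on both strands.
Mmp13, chr9:7272264-7272513: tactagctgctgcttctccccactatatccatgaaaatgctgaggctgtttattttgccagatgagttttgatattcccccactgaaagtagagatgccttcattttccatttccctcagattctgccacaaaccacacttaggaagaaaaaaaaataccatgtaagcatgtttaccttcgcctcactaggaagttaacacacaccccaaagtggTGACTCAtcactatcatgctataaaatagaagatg
Mmp12, first start, chr9:7344147-7344396: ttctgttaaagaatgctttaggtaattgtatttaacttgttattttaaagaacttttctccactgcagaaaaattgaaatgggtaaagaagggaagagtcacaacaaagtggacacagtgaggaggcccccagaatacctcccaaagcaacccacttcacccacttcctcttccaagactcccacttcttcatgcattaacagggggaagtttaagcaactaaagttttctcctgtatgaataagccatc
Mmp12, second start, chr9:7347124-7347373: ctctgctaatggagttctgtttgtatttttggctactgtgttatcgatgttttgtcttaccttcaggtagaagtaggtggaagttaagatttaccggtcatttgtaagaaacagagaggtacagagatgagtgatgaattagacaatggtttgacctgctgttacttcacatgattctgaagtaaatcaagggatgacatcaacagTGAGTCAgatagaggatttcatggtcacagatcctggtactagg
Mmp3, chr9:7445572-7445821: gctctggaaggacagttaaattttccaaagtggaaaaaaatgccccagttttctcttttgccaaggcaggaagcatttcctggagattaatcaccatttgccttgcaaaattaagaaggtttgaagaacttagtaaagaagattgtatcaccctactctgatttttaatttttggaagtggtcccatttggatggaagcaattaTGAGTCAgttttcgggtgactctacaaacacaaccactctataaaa
The match began 46 bases before the start of Mmp3, 44 bases before the second start of Mmp12 and 35 bases before that of Mmp13, while the window of the first Mmp12 start held none. TGANTCA was found in 6.75% of the 32851 mouse windows of this length, and in 3 of the 7 genes of the list with an entry in that table. The other 4 (Mmp14, Timp1, Timp2 and Timp3) held no match, and Mmp2, Mmp9 and Mmp19 had no entry. TATAAA, present in 12.4% of windows, began 7 bases before the start of Mmp3 and 16 bases before that of Mmp13. A match is a run of letters and was not measured as a binding site.

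The remaining genes are spread over the genome (mm10). Mmp2 lies at chr8:92827291-92853420 (plus strand), Mmp9 at chr2:164940780-164955850 (plus), Mmp14 at chr14:54431612-54445364 (plus) and Mmp19 at chr10:128790910-128800824 (plus). Timp1 lies at chrX:20870166-20874735 (plus), overlapping Syn1 on the other strand. Timp2 lies at chr11:118301069-118355740 (minus), where it overlaps Cep295nl on the same strand, and Timp3 at chr10:86300372-86349506 (plus), overlapping Syn3 on the other strand. How strand was used in counting is not given in the sources used here. Syn3 had 4570 UMIs in tissue against 330972 of Timp3, Syn1 564 against 3702 of Timp1, Cep295nl 173 against 57541 of Timp2 and Tmem198b, which overlaps Mmp19 on the other strand, 1655 against 13785. In ntCZC Tmem198b had 38 UMIs against 45 of Mmp19, and without strand the reads of such a pair cannot be told apart.

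Cell classes were set by gates on marker genes that included none of the 10 genes. A barcode entered a class with at least 3 of its markers and at most 1 UMI of other lineages' genes, which placed 46319 tissue barcodes (32.3%), 1883 ntCZC barcodes (75.3%) and 577 PBMC barcodes (76.7%). No doublet caller was run. A barcode with enough markers of 2 classes of 1 lineage went to the class with the higher share of its markers, and ties were left out. A barcode that passed gates of 2 lineages was also left out. Mixed barcodes of 1 lineage can therefore remain. In tissue 59.4% of gated barcodes were leukocytes, 21.3% endothelial, 14.1% epithelial and 4.34% stromal. Sorted ntCZC were leukocytes in 99.3%, with 1 endothelial and 2 mesothelial barcodes and 0 of 1883 in the fibroblast gate, which allows a share of up to 0.159%. The hashtags that marked the organs before pooling were not used here, so a class may mix organs.

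**Figure D1:**
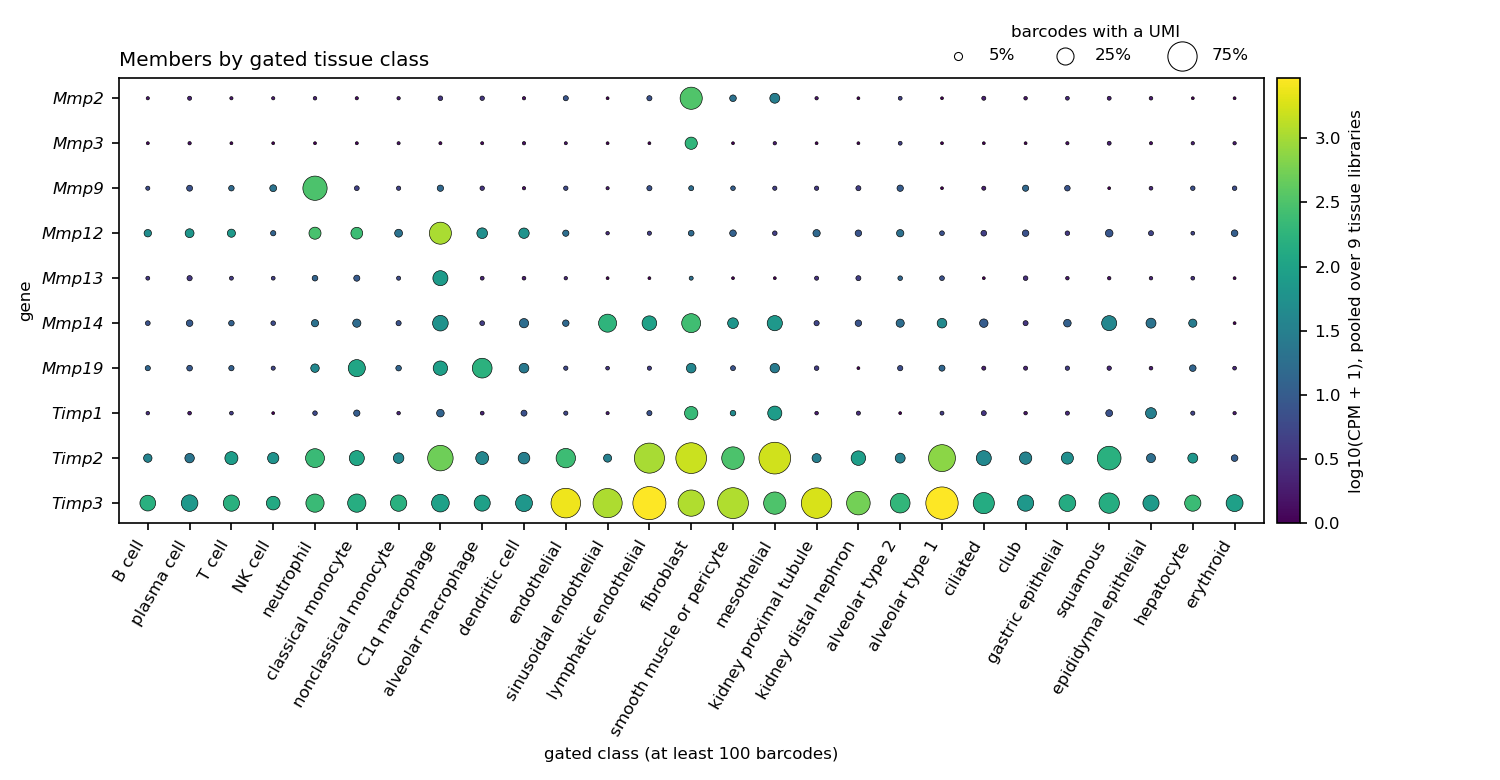
Each of the 10 genes (rows) in the gated tissue classes with at least 100 barcodes (columns), with dot colour giving log10(CPM + 1) pooled over 9 libraries and dot area the share of barcodes with a UMI. Mmp2, Mmp3, Mmp14 and Timp1 peaked in fibroblasts, Mmp9 in neutrophils, Mmp12 and Mmp13 in C1q macrophages and Mmp19 in alveolar macrophages.

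The 7 enzymes were led by 4 classes in tissue, fibroblasts, neutrophils, C1q macrophages and alveolar macrophages. Of the UMIs in gated barcodes, fibroblasts held 71.4% of Mmp2 and 93.5% of Mmp3, neutrophils 76.6% of Mmp9, C1q macrophages 74.4% of Mmp12 and 80.3% of Mmp13, and alveolar macrophages 52.3% of Mmp19. Mmp14 was divided between C1q macrophages (35.1%) and fibroblasts (19.3%). Among inhibitors, fibroblasts held 37.7% of Timp1, C1q macrophages 37.7% of Timp2 and endothelial cells 56.3% of Timp3. These shares follow both the level in a class and how many barcodes of it were captured, and between 34.6% and 71.9% of a gene's tissue UMIs lay in barcodes without a class. Tissue wt replicate 2 held 45033 of the 56035 Mmp12 UMIs, 4550 of 8635 of Mmp9 and 2032 of 3702 of Timp1. Without it, a choice made after the data were seen, Mmp14 was led by fibroblasts (24.3%) before C1q macrophages (20.3%), and the first shares were 25.3% for Timp2, 75.1% for Mmp19 and 84.01% for Mmp12.

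The gelatinases were split between stroma and neutrophils. Mmp2 encodes gelatinase A, which cuts denatured and basement membrane collagen. In the fibroblast gate (1298 barcodes, 8 libraries with at least 20) its level was 168 CPM in the lowest library, 331 in the median and 488 in the highest, against 1.87 to 4.02 CPM in the other gated barcodes of the same libraries. All 8 libraries were higher in fibroblasts and the groups did not overlap. The means were 339 ± 93.8 and 2.73 ± 0.714 CPM (SD, n = 8 libraries each), a log2 difference of 6.91 ± 0.20 (SE; edgeR quasi-likelihood test paired by library, adjusted p = 3.87e-17). A Mmp2 UMI was present in 42.8% of fibroblasts and in 0.162% of B cells, a class that should lack it, with median depths of 1939 and 1766 UMIs. After each barcode was thinned to 1000 UMIs the shares were 26.2% and 0.0834%. The next classes by pooled level were mesothelial cells (28.7 CPM), smooth muscle or pericytes (18.4 CPM) and endothelial cells (7.32 CPM), and the median of 27 classes was 0.868 CPM.

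Mmp9 encodes gelatinase B, which neutrophils store in granules. In the neutrophil gate (3555 barcodes) it ran from 189 CPM in tissue null replicate 2 to 905 CPM in tissue het replicate 2, with a median of 307, against 1.77 to 12.5 CPM in the other gated barcodes. Every library was higher in neutrophils, with means of 440 ± 284 and 5.27 ± 3.84 CPM (SD, n = 8) and a log2 difference of 6.86 ± 0.39 (adjusted p = 1.36e-11). The share of neutrophils with a UMI was 51.4% (32.8% thinned), against 0.755% (0.417% thinned) of B cells, with median depths of 1891 and 1766 UMIs. NK cells came next by pooled level, at 19.7 CPM.

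The 3 neighbours on chromosome 9 separated into stromal and macrophage genes. Mmp3, stromelysin 1, which cuts many matrix proteins and activates other proenzymes, was at 87.9 CPM in the lowest fibroblast library, 176 in the median and 241 in the highest, and at 0 to 0.682 CPM in the other gated barcodes. No library overlapped, and the log2 difference of 9.15 ± 0.29 (adjusted p = 1.73e-16) was the highest of the 10 genes over the 7 gates tested. A UMI was found in 12.6% of fibroblasts (8.61% thinned) and in 0.0539% of B cells (0.0417% thinned), and 1 barcode held up to 42 UMIs. No other class passed 3.54 CPM, the pooled level in alveolar type 2 cells.

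Mmp12 is macrophage metalloelastase. Its level in the C1q macrophage gate (4201 barcodes), named for the complement C1q genes among its markers, was 26.0 CPM in tissue wt replicate 5, 554 in the median library and 1557 in tissue wt replicate 1, against 3.00 to 188 CPM in other gated barcodes. The groups overlapped, and 8 of 9 libraries were higher in C1q macrophages. Means were 663 ± 467 and 34.2 ± 58.6 CPM (SD, n = 9), with a log2 difference of 5.39 ± 0.66 (adjusted p = 8.98e-06). A single barcode held as many as 1617 UMIs. Neutrophils and classical monocytes ranked next by pooled level, at 290 and 236 CPM, and 1 library gave most of that. Tissue wt replicate 2 had 395 CPM in neutrophils and 419 CPM in classical monocytes, while the other 7 libraries had at most 52.5 and 11.8 CPM. B cells held a Mmp12 UMI in 4.13% of barcodes (2.29% thinned), against 42.2% (26.7% thinned) of C1q macrophages at median depths of 1766 and 3248 UMIs.

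Mmp13, collagenase 3, cuts fibrillar collagen. It was at 17.4 CPM in the lowest C1q macrophage library, 98.6 in the median and 244 in the highest, against 0 to 8.52 CPM in other gated barcodes. All 9 libraries were higher in C1q macrophages and the groups did not overlap (101 ± 66.6 against 1.83 ± 2.63 CPM, SD, n = 9, log2 difference 6.39 ± 0.58, adjusted p = 5.01e-07). The share with a UMI was 19.3% (10.9% thinned), against 0.611% (0.313% thinned) of B cells. In fibroblasts, the next class at a pooled 16.8 CPM, 5 of 8 libraries had no UMI and tissue wt replicate 2 had 64.1 CPM.

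Mmp14 encodes MT1-MMP, the membrane-bound enzyme that activates proMmp2 on the cell surface. In fibroblasts it was at 172 CPM in the lowest library, 229.5 in the median and 343 in the highest, against 11.4 to 29.2 CPM elsewhere, with a log2 difference of 3.75 ± 0.15 (adjusted p = 1.09e-14) and no overlap. C1q macrophages held less, 31.9 to 75.8 CPM with a median of 60.3, still above the 10.4 to 29.8 CPM of other gated barcodes in all 9 libraries (log2 difference 1.86 ± 0.18, adjusted p = 8.28e-07). Sinusoidal endothelial cells (liver-type capillaries) ranked second after fibroblasts at 187 ± 44.3 CPM (SD, n = 6), a value within 1 SD of the 239 ± 55.5 CPM of fibroblasts. Lymphatic endothelial cells followed at 77.3 ± 43.5 CPM (SD, n = 3). The share of fibroblasts with a Mmp14 UMI was 31.1% (17.4% thinned), against 1.28% (0.417% thinned) of B cells.

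Mmp19, an enzyme of basement membranes, was led by alveolar macrophages. There it was at 68.0 CPM in the lowest library (tissue wt replicate 2), 144 in the median and 246 in the highest (tissue wt replicate 1), against 7.46 to 53.6 CPM in other gated barcodes. No library overlapped, with a log2 difference of 3.28 ± 0.42 (adjusted p = 2.77e-05). Classical monocytes, at 101 ± 44.6 CPM, and C1q macrophages, at 69.7 ± 47.1 CPM, came next, and neighbours in this order lay within 1 SD of each other. The thinned share with a UMI was 12.9% in alveolar macrophages, 9.26% in classical monocytes and 4.67% in C1q macrophages, against 0.584% in B cells. Unthinned, the shares were 33.8%, 25.2%, 17.6% and 1.63% at median depths of 3812, 3675, 3248 and 1766 UMIs.

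**Figure D2:**
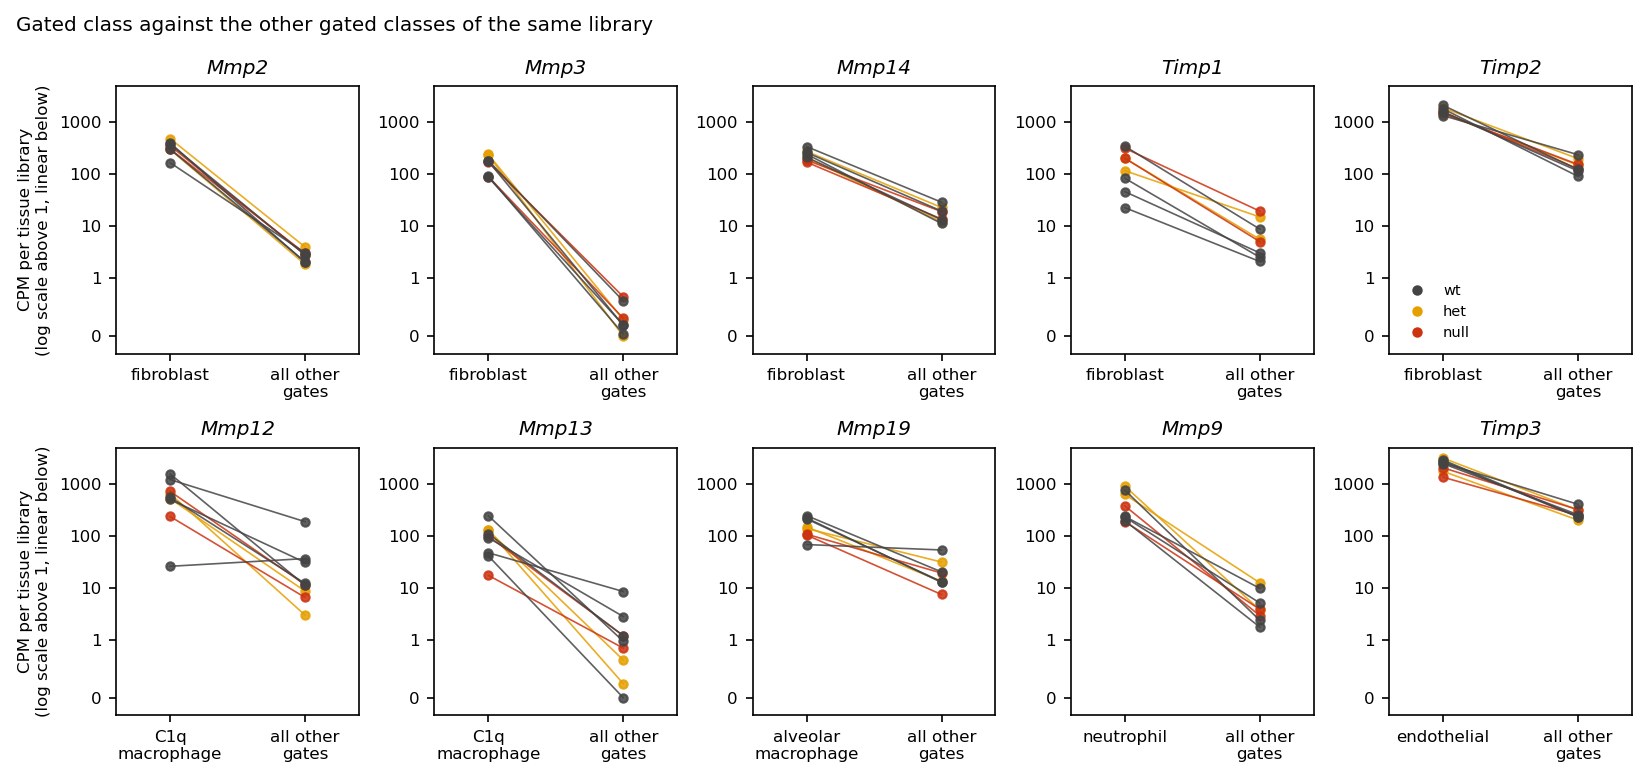
Level of each gene (CPM, log scale above 1 and linear below) in 1 tested gate (left) and in all other gated barcodes (right). Each line is a tissue library, coloured by genotype label. The gate was the class with the highest pooled level, except for Timp2 and Timp3. These are shown in fibroblasts and endothelial cells, which lay below other classes by pooled level. The gate lay above the other barcodes in every library for each gene but Mmp12, where it was higher in 8 of 9.

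Timp1, an inducible secreted inhibitor, peaked in fibroblasts but varied widely between libraries, from 22.9 CPM in tissue wt replicate 1 to 348 CPM in tissue wt replicate 2, with a median of 161. All were above the 2.11 to 19.6 CPM of other gated barcodes (log2 difference 4.55 ± 0.25, adjusted p = 2.15e-12). Mesothelial cells, which line body cavities, followed at 71.7 ± 32.6 CPM (SD, n = 6) and epididymal epithelium was at 31.1 ± 19.5 CPM (SD, n = 7). A Timp1 UMI was present in 15.02% of fibroblasts (8.33% thinned) and 0.377% of B cells (0.146% thinned).

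Timp2, which besides inhibiting takes part with Mmp14 in activating proMmp2, was highest in mesothelial cells and fibroblasts. Fibroblasts ranged from 1348 CPM in the lowest library through a median of 1585 to 2125 in the highest, and other gated barcodes from 91.6 to 239 CPM, without overlap (log2 difference 3.47 ± 0.18, adjusted p = 4.98e-13). Mesothelial cells, at 1613 ± 286 CPM (SD, n = 6), did not differ from the 1666 ± 260 CPM of fibroblasts beyond the spread. Lymphatic endothelial cells were at 1062 ± 124 CPM and alveolar type 1 cells at 766 ± 339 CPM. C1q macrophages were at 297 CPM in the lowest library, 470.3 in the median and 928 in the highest, above the 76.8 to 168 CPM of other gated barcodes (log2 difference 2.25 ± 0.18, adjusted p = 1.88e-07). Alveolar macrophages were lower than other gates, at 35.9 ± 16.8 against 213 ± 49.0 CPM (log2 difference -2.38). Timp2 was seen in 82.8% of fibroblasts (70.02% thinned) and 5.53% of B cells (2.31% thinned).

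Timp3, the inhibitor that binds to the matrix, was led by vascular and epithelial classes. Endothelial cells (9150 barcodes) ran from 1341 to 3128 CPM with a median of 2489, against 201 to 405 CPM in other gated barcodes, and all 8 libraries were higher (log2 difference 2.97 ± 0.16, adjusted p = 2.51e-08). Kidney proximal tubule cells were at 1405 to 2310 CPM with a median of 1840.1, also above the other gates in all 8 libraries (log2 difference 2.01 ± 0.14, adjusted p = 1.38e-08). Lymphatic endothelial cells (2670.1 ± 291 CPM, n = 3) and alveolar type 1 cells (3265 ± 1241 CPM, n = 5) did not differ from endothelial cells (2351 ± 602 CPM, n = 8) beyond these SDs. A Timp3 UMI was found in 76.7% of endothelial barcodes (66.4% thinned) and also in 21.3% of B cells (12.3% thinned), at median depths of 1734 and 1766 UMIs, so shares near the latter level cannot be told from background.

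Counted over the whole list, fibroblasts had 6 of 10 genes higher and 1 lower than other gated barcodes, with 45.9% of 15225 genes called at an adjusted p of 0.05 in that comparison. The median log2 difference of the 10 was 2.25, against -0.249 over all genes tested. Mmp12 was the one that fell, from 119 ± 152 to 8.74 ± 17.8 CPM, by 3.88 on the log2 scale. Timp3 rose by 1.04 ± 0.15 with overlapping groups, and Mmp9 (-0.98, adjusted p = 0.106), Mmp13 (-0.44, adjusted p = 0.547) and Mmp19 (-0.42, adjusted p = 0.212) did not pass. Against stromal classes alone, the Mmp19 difference was 1.08.

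C1q macrophages had 4 genes higher and 3 lower (51% of 14628 genes called, median of the list 0.288), alveolar macrophages 1 higher and 8 lower (72.1% of 15180 called), and neutrophils 1 higher and 6 lower (29.5% of 15498 called). The gene that rose in alveolar macrophages was Mmp19, and in neutrophils Mmp9. Among the lower genes, Mmp3 had 4 UMIs in C1q macrophages, 5 in alveolar macrophages and 1 in neutrophils. It passed the filter on low counts in these comparisons only through the other gates, so its calls lean on their level. Mmp12 in alveolar macrophages was at 41.7 ± 35.7 CPM, with a log2 difference of -0.88 that did not pass (adjusted p = 0.138). In neutrophils, Timp3 was at 207 ± 47.0 CPM against 591 ± 157 CPM elsewhere, a log2 difference of -1.03, whereas against other leukocytes alone it was 1.41. For Mmp2 the difference was -1.26 in C1q macrophages and -2.46 in alveolar macrophages against all gates, and 1.78 and 0.14 against other leukocytes.

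Endothelial cells had 1 gene higher and 7 lower (70.6% of 15161 genes called) and proximal tubule cells 1 higher and 9 lower (66.3% of 15052 called). In both the higher gene was Timp3. Mmp3 had 0 UMIs in the proximal tubule gate, at least 11.5-fold lower than in other gates with the floor of 3 UMIs set over the group. In the same gate Mmp2 had 5 UMIs and Timp1 8. Mmp2, Mmp3 and Timp1 passed the filter on low counts there only through the other gates, so these calls lean on their level. Mmp12 fell by 4.64 on the log2 scale in proximal tubule cells against all gates and differed by 0.076 against other epithelial classes.

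Smooth muscle or pericytes had 3 genes higher (Mmp14, Timp1 and Timp3) and 5 lower (44% of 14670 genes called), and the calls of Mmp14 and Timp1 depended on 1 library. Mmp14 was at 40.0 ± 48.0 against 21.8 ± 6.88 CPM (log2 difference 0.87 ± 0.30, adjusted p = 0.0142) and Timp1 at 32.7 ± 50.7 against 12.7 ± 9.02 CPM (1.29 ± 0.40, adjusted p = 0.005). Without tissue wt replicate 2 these were 0.49 (adjusted p = 0.306) and 0.06 (adjusted p = 0.942). Against other stromal classes all 3 turned lower, with log2 differences of -2.25 for Mmp14, -2.36 for Timp1 and -0.11 for Timp3. Mmp13 had 0 UMIs in this gate and was at least 5.30-fold lower, again with the floor over the group. Mmp3 also had 0 UMIs there and Mmp19 had 8. Mmp3, Mmp13 and Mmp19 passed the filter on low counts only through the other gates, so these calls lean on their level.

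**Figure D3:**
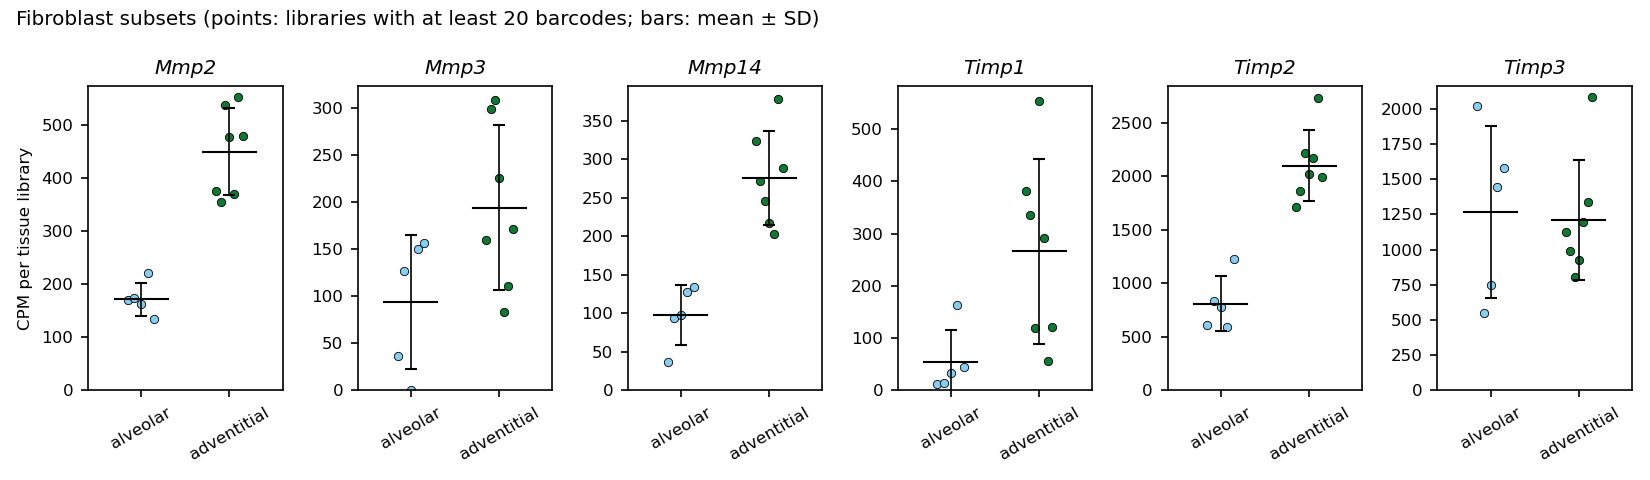
Level of 6 genes (CPM) in tissue barcodes of the alveolar and the adventitial fibroblast gates, a point per library with at least 20 barcodes, with the mean and SD. Mmp2, Mmp14 and Timp2 were higher in adventitial fibroblasts without overlap, and Mmp3, Timp1 and Timp3 overlapped. The share of all genes without overlap is not given.

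Fibroblasts were further divided by marker lists into adventitial (665 barcodes, 7 libraries, median 2359 UMIs) and alveolar (219 barcodes, 5 libraries, median 1813 UMIs) subsets, which are given as a description with no test. Mmp2 was at 356 to 553 CPM in adventitial and 134 to 220.0 CPM in alveolar fibroblasts. Mmp14 ran from 203 to 378 and from 36.3 to 134 CPM, and Timp2 from 1713 to 2737 and from 591 to 1227 CPM. These 3 genes did not overlap between subsets. The share of all genes that did not overlap is not given here, so the separation cannot be read as particular to them. Mmp3 (194 ± 87.7 and 93.9 ± 71.2 CPM) and Timp1 (266 ± 178 and 52.9 ± 62.6 CPM) overlapped, and Timp3 was at 1210.1 ± 425 and 1269 ± 612 CPM. Within the fibroblast gate, 90.8% of barcodes with a Mmp2 UMI also held a Timp2 UMI, against 76.9% of those without one, at depths that were not matched.

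**Figure D4:**
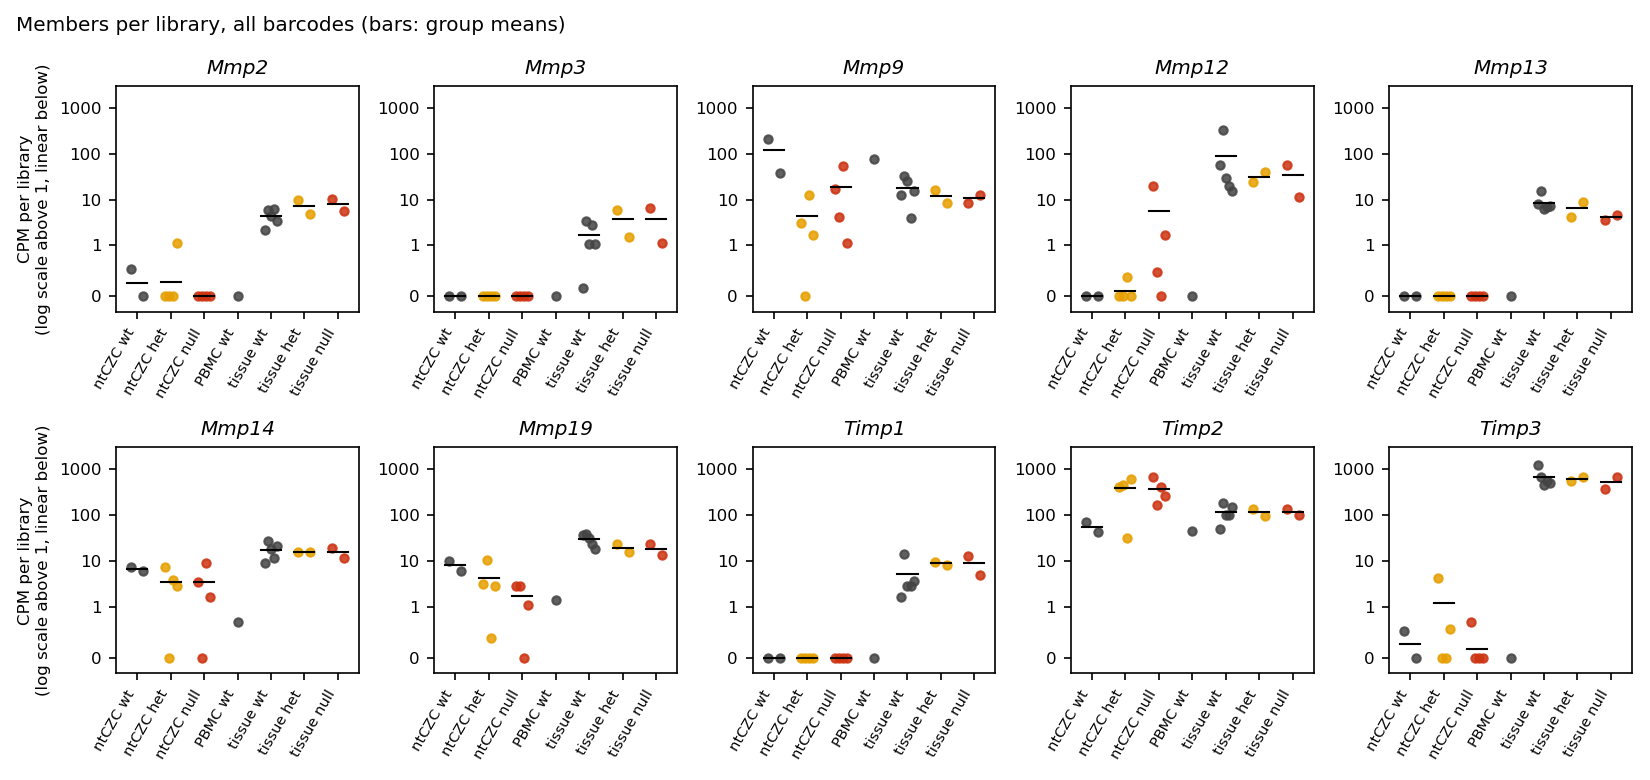
Level of each gene (CPM, log scale above 1 and linear below) in every library by kind and genotype label, a point per library and a bar at the group mean. Timp3 lay higher in all 9 tissue libraries (376 CPM or more) than in all 10 ntCZC libraries (4.20 CPM or less). Mmp3, Mmp13 and Timp1 were at 0 in all 10 ntCZC libraries, where a count of 0 allows 1.15 to 18.6 CPM in a single library, a range that takes in or lies above their lowest tissue points (0.163, 3.57 and 1.65 CPM).

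Sorted ZSG+ blood held less of most of these transcripts than tissue. Of 9 genes tested between the 10 ntCZC and 9 tissue libraries, 7 were lower in ntCZC and 1 was higher, with 66% of 11905 genes called in that comparison (3274 higher and 4586 lower). The median log2 difference of the 9 was -4.30, against -0.125 over all genes. Mmp2, Mmp12, Mmp13, Mmp19, Timp1 and Timp3, with 0 to 45 UMIs each in ntCZC, passed the filter on low counts of this fit only through tissue. The count of lower genes and the median are largely set by that. In summed libraries fewer cells of a type and less RNA per cell cannot be told apart, and the fibroblast, endothelial and epithelial classes that led several genes in tissue were nearly missing from ntCZC.

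Mmp3, Mmp13 and Timp1 had 0 of the 13389093 UMIs of the 10 ntCZC libraries, a count that leaves room for at most 0.224 CPM over the group. No barcode held a UMI of them, which limits the share of barcodes with a UMI to 0.12% and does not limit the share of cells that express them. The tissue libraries held 1215 UMIs of Mmp3 (0.163 to 6.56 CPM), 4159 of Mmp13 (3.57 to 15.1 CPM) and 3702 of Timp1 (1.65 to 14.5 CPM). With the floor of 3 UMIs over the ntCZC group and tissue UMIs pooled, Mmp13 was at least 39.9-fold and Timp1 at least 35.5-fold lower. Tissue wt replicate 2 gave 50.9% of the pooled Mmp13 UMIs and 54.9% of those of Timp1, so both bounds lean on 1 library. Mmp3 did not pass the filter on low counts. Mmp2 had 3 UMIs in 2 ntCZC barcodes, against 2643 in tissue (2.19 to 10.2 CPM), a pooled ratio of 25.4 with a 95% counting interval of 8.67 to 123. Timp3 had 7 UMIs in ntCZC, 4 of them in the single endothelial barcode, against 330972 in tissue (376 to 1228 CPM), a ratio of 1361 (660.5 to 3385) and a log2 difference of -10.28 ± 0.51 (adjusted p = 4.61e-12).

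Mmp14 and Mmp19 were low but present in ntCZC. Mmp14 ran from 0 to 8.86 CPM with a median of 3.71 in ntCZC and from 9.07 to 27.5 CPM with a median of 15.9 in tissue, a log2 difference of -2.30 ± 0.41 (adjusted p = 5.81e-05). Mmp19 ran from 0 to 10.8 CPM (median 2.85) and from 13.9 to 39.0 CPM (median 23.6), a difference of -2.96 ± 0.37 (adjusted p = 7.89e-07). Neither gene overlapped, and Mmp19 passed the filter of this fit only through tissue. Mmp12 was at 0 in 6 of 10 ntCZC libraries and reached 19.97 CPM in ntCZC null replicate 1, against 11.4 to 322 CPM in tissue, with overlap (log2 difference -4.30 ± 1.00, adjusted p = 0.000827). Mmp12 also passed the filter only through tissue, so its call leans on the tissue level. Of its 33 UMIs in ntCZC, 27 came from 1 barcode in the nonclassical monocyte gate, which had 17021 UMIs and 3133 genes.

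Mmp9 and Timp2 were the tested genes that were not called lower in ntCZC. Mmp9 was at 0 to 209 CPM with a median of 8.26 in ntCZC and at 3.94 to 32.5 CPM with a median of 12.9 in tissue. The groups overlapped and the log2 difference of 0.93 ± 0.71 did not pass (adjusted p = 0.26). The highest value belonged to ntCZC wt replicate 1, where 368 of 393 Mmp9 UMIs lay in the neutrophil gate, and 94 of its 104 neutrophils were positive. Without that gate its level was 14.7 CPM. Over all ntCZC libraries, 103 of 114 neutrophils (90.4%, 87.6% thinned) held a Mmp9 UMI, against 51.4% (32.8% thinned) of tissue neutrophils, a difference between libraries of which 1 gave nearly all ntCZC neutrophils and which was not tested. T cells of ntCZC were positive in 20.3% (6.56% thinned) and T cells of tissue in 1.96% (1.04% thinned), at median depths of 4705 and 1953 UMIs. B cells, which should lack Mmp9, were positive in 0 of 234 in ntCZC, at a median of 3109 UMIs, and in 0.755% (0.417% thinned) in tissue. The difference between the T cells was not tested. In the PBMC library Mmp9 was at 78.1 CPM, and 89 of its 111 UMIs came from 36 neutrophils.

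**Figure D5:**
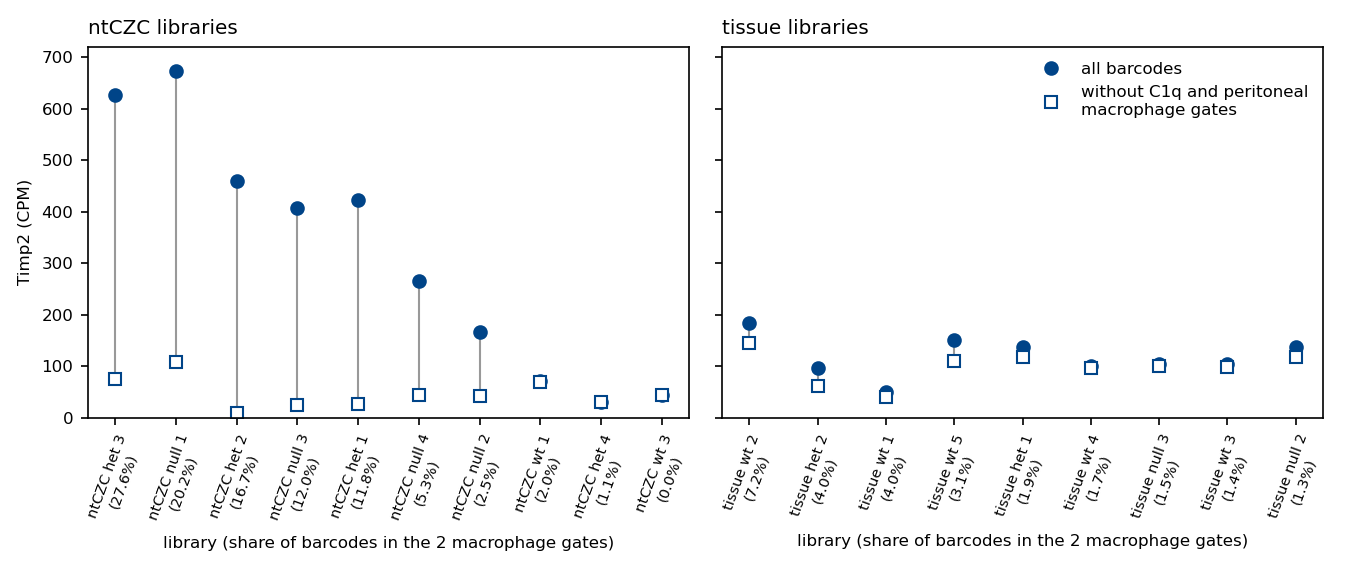
Timp2 level (CPM) of each ntCZC and tissue library with all barcodes (filled circles) and without barcodes of the C1q and peritoneal macrophage gates (open squares), ordered by the share of barcodes in these gates. Left out, they took the highest ntCZC library from 673 to 108 CPM, and tissue libraries then lay between 40.4 and 145 CPM.

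Timp2 was higher in ntCZC than in tissue over summed libraries. It ran from 31.1 to 673 CPM with a median of 336 in ntCZC and from 49.0 to 185 CPM with a median of 104 in tissue, overlapping, with means of 317 ± 237 (SD, n = 10) and 118 ± 39.2 (SD, n = 9). The log2 difference was 1.15 ± 0.44 (adjusted p = 0.0263). Without barcodes of the C1q and peritoneal macrophage gates it was -1.13 ± 0.33. These gates were chosen after the data were seen and held most Timp2 UMIs in 7 ntCZC libraries, against 5.31% to 38.6% in tissue, so leaving them out had to lower ntCZC more than tissue, and the value is a description. The call was lost with another scaling (0.95, adjusted p = 0.0606), without tissue null replicate 3 (1.00, adjusted p = 0.0604) and with barcodes passing quality limits only (0.73, adjusted p = 0.169).

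These macrophage classes were few and rich in Timp2. In ntCZC the peritoneal macrophage gate, set by Gata6 and other markers of large cavity macrophages, had 74 barcodes at a pooled 1922 CPM with 97.3% positive (81.9% thinned). The C1q gate had 99 barcodes at 1232 CPM with 79.8% positive (55.7% thinned). B cells of ntCZC were positive in 9.83% (0.862% thinned), and their median depth was 3109 UMIs against 15098.5 and 8112. Both gates together made up 27.6% of barcodes in ntCZC het replicate 3, the highest share, and 0 of 77 in ntCZC wt replicate 3. They held 76.9% to 98.8% of Timp2 UMIs in 7 of the 10 libraries. In ntCZC het replicate 4, wt replicate 1 and wt replicate 3, the 3 libraries with the lowest levels (31.1, 70.1 and 43.3 CPM), they held 1.23%, 5.30% and 0.

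Nonclassical monocytes, the most frequent class of ntCZC with 934 barcodes, were compared between ntCZC and tissue in 7 libraries of each kind. Of the 10 genes, 2 were tested there and 1 was called, where 30% of 5270 genes tested were called. Timp3 was at 0 in all 7 ntCZC libraries and at 41.4 to 318 CPM in tissue, at least 228-fold lower in ntCZC (adjusted p = 9.94e-07). It passed the filter on low counts only through tissue, so the call and the fold rest on the tissue level alone. Pooled over tissue libraries, that level was 158 CPM, against 159 CPM in tissue B cells. Tissue B cells held Timp3 in 21.3% of barcodes, so the part of background RNA in the tissue level was not tested. Timp2 was at 4.24 to 36.7 CPM in ntCZC and 22.8 to 75.3 CPM in tissue with overlap, and its difference of -0.94 ± 0.36 did not pass (adjusted p = 0.0523). The call depended on the setting, and it passed with no filter on low counts (-0.82, adjusted p = 0.0247), with gates of 4 markers (-1.07, adjusted p = 0.0351), with up to 50% mitochondrial UMIs (-0.91, adjusted p = 0.0457) and with a replicate block in place of the sex term (-0.93, adjusted p = 0.0443). It did not pass with DESeq2 (-0.98, adjusted p = 0.0544) or RLE scaling (-0.93, adjusted p = 0.054).

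Unsorted blood held Mmp9 and Timp2, and little of the other genes. The PBMC library had 0 UMIs of Mmp2, Mmp3, Mmp12, Mmp13, Timp1 and Timp3, which allows up to 2.11 CPM each. It held 1 UMI of Mmp14, 2 of Mmp19, 65 of Timp2 (45.7 CPM) and 111 of Mmp9. The Mmp9 level of 78.1 CPM was above that of all 9 tissue libraries, of which the highest was at 32.5 CPM. With 1 library, from a mouse much younger than the others, no test was made.

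Among the Nalcn genotypes, none of the 10 genes passed the test over all genes in any of 12 comparisons. In tissue, 0.0112% of 17863 genes were called between null and wt (2 genes, 1621 at an unadjusted p under 0.05) and 0% between het and wt (0 genes, 1367 unadjusted). All 10 members were tested in both. Mmp19, at 18.8 to 39.0 CPM in the 5 wt libraries, was at 13.9 and 23.3 CPM in null and 15.5 and 24.1 CPM in het, overlapping in both. The log2 difference from wt was -0.85 ± 0.17 in null (adjusted p = 0.274) and -0.96 ± 0.18 in het (adjusted p = 0.601), and these comparisons share the wt libraries. DESeq2 called it in both (-0.83, adjusted p = 0.00178, and -0.95, adjusted p = 0.00151), the only member it called there. The shares above are from edgeR, and the share of all genes that DESeq2 called is not given here. Mmp13 was at 3.57 and 4.63 CPM in null and 6.10 to 15.1 CPM in wt, without overlap, and the log2 difference of -1.27 ± 0.50 did not pass (adjusted p = 0.525).

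In ntCZC, 4 of the 10 genes (Mmp9, Mmp14, Mmp19 and Timp2) were tested between genotypes, and 0 were called. The shares called over 9379 genes were 0% for null against wt (0 genes, 360 at an unadjusted p under 0.05), 0.107% for het against wt (10 genes, 741 unadjusted) and 0% for null against het (0 genes, 686 unadjusted). Mmp9 was at 209 and 37.1 CPM in wt, at 3.15, 0, 1.71 and 12.3 CPM in het replicates 1 to 4 and at 17.1, 4.22, 53.2 and 1.11 CPM in null replicates 1 to 4. The 37.1 CPM of wt replicate 3 rested on 6 UMIs. Wt and het did not overlap, with a log2 difference of -4.89 ± 1.08 (adjusted p = 0.244). Null and wt overlapped, with a difference of -3.80 ± 1.598 (adjusted p = 0.983, unadjusted p under 0.05) that DESeq2 did not call either. The difference of het from wt was called by DESeq2 (-5.15, adjusted p = 0.0165) and without ntCZC het replicate 4 (-7.36, adjusted p = 0.0315). How many of all genes were called in these refits is not given here. The neutrophil gate held 20.8% of barcodes in wt replicate 1, 2.597% in wt replicate 3, 0 to 0.161% in the 4 het libraries and 0 to 2.24% in the 4 null libraries, and its part in these differences was not tested.

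Timp2 in ntCZC was at 70.1 and 43.3 CPM in wt, 423, 460.4, 627 and 31.1 CPM in het, and 673, 167, 408 and 265 CPM in null. The 43.3 CPM of wt replicate 3 rested on 7 UMIs. Null lay above wt without overlap and het overlapped. The log2 differences from wt were 1.27 ± 1.11 for null (adjusted p = 0.983) and 1.75 ± 0.99 for het (adjusted p = 0.687), and null differed from het by -0.49 ± 0.76 (adjusted p = 0.968). Both macrophage gates together took up 1.996% and 0 of the barcodes of the wt libraries, from 1.13% to 27.6% of the het ones and from 2.48% to 20.2% of the null ones, and their part in the levels was not tested.

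Within tissue classes, 0 members were called for either genotype by edgeR. In fibroblasts 7 members were tested, and 0.0994% of 5028 genes were called for null (5 genes, 166 at an unadjusted p under 0.05) and 0% for het (0 genes, 382 unadjusted). In endothelial cells 8 were tested, with 0.0163% of 12250 genes called for null (2 genes, 812 unadjusted) and 0% for het (0 genes, 953 unadjusted). In C1q macrophages 7 were tested, with 0% of 8692 genes called for null (0 genes, 376 unadjusted) and 0% for het (0 genes, 280 unadjusted). In nonclassical monocytes of ntCZC, 2 were tested between null and het, with 0% of 7238 genes called (0 genes, 208 unadjusted). DESeq2 called 1 member in all of these, Mmp12 in het endothelial cells (-4.71, adjusted p = 0.0447), where wt replicate 2 was at 63.6 CPM, the other wt libraries at 3.68 to 6.26 CPM and the het libraries at 0.584 and 1.08 CPM. The share of all genes called by DESeq2 in these fits is not given here.

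Timp3 had an unadjusted p under 0.05 in 4 of these class comparisons. In fibroblasts it was at 1164 to 2186 CPM in 4 wt libraries, 735 and 777 CPM in het and 1012 ± 371 CPM (SD, n = 2) in null. The log2 differences from wt were -0.89 ± 0.29 for het (adjusted p = 0.438, no overlap) and -0.76 ± 0.30 for null (adjusted p = 0.999, overlap). In endothelial cells null was at 1689 ± 492 and wt at 2641 ± 189 CPM (-0.69 ± 0.26, adjusted p = 0.726). In C1q macrophages het was at 28.9 and 30.2 CPM and wt at 73.2 to 128 CPM (-1.45 ± 0.42, adjusted p = 1). None of these passed, and the groups held 2 libraries against 4 or 5. Pooled over tissue libraries, Timp3 was at 93.2 CPM in C1q macrophages and 159 CPM in B cells. The part of background RNA in the macrophage levels was not tested.

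Other differences in single classes did not pass either. Mmp9 in C1q macrophages was at 132 CPM in tissue het replicate 1 and 8.24 CPM in het replicate 2, against 2.17 to 17.0 CPM in wt. The log2 difference of 2.76 ± 0.81 (adjusted p = 1) became -0.28 without het replicate 1. Timp1 in endothelial cells was at 11.6 ± 8.26 CPM in null and 3.41 ± 1.28 CPM in wt (1.99 ± 0.48, adjusted p = 0.726). Timp2 in nonclassical monocytes of ntCZC was at 32.6 ± 4.93 CPM in 3 null and 10.7 ± 9.09 CPM in 3 het libraries, with no overlap and a log2 difference of 1.15 ± 0.54 (adjusted p = 1).

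A wider list of 60 genes of the same system, other metalloproteinases and inhibitors, activators, ADAM proteases and matrix substrates, was counted beside the members. Between ntCZC and tissue, 43 were tested, 4 were higher and 32 lower, where 66% of all genes tested were called. The higher ones included fibronectin Fn1 (log2 difference 3.66), the clearance receptor Lrp1 (1.68) and the urokinase receptor Plaur (0.92), and the lower ones the aggrecanase Adamts5 (-7.21), tissue plasminogen activator Plat (-6.82) and basement membrane collagen Col4a1 (-4.74). Adamts5 had 1 UMI in ntCZC, Plat 4 and Col4a1 35, against 4974, 14441 and 32168 in tissue. Adamts5 and Plat passed the filter on low counts only through tissue, and the count of lower genes is partly set by such genes. In fibroblasts 34 of 53 were higher and 12 lower, against 45.9% of all genes called in either direction, led by the fibrillar collagens Col1a2 (7.62), Col3a1 (7.34) and Col5a1 (6.58). In C1q macrophages 10 of 53 were higher and 37 lower (51% of all genes called), with urokinase Plau (2.15) and Mmp27 (4.68) among the higher. In neutrophils 7 of 54 were higher, among them Adam8 (4.67), the neutrophil collagenase Mmp8 (3.75) and Plaur (2.78), and 29 were lower (29.5% of all genes called). Alveolar macrophages had 10 of 53 higher, among them the sheddase Adam17 (1.44) and the hyaluronan receptor Cd44 (3.25), and 41 lower (72.1% of all genes called).

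Endothelial cells had 21 of 54 genes of the wider list higher, led by Col4a1 (3.39) and Col4a2 (3.12), the collagens of their basement membrane, and 21 lower, where 70.6% of all genes were called. Smooth muscle or pericytes had 24 of 51 higher, with Serpine2 (3.84) and Adamts5 (3.30), and 14 lower (44% of all genes called). Proximal tubule cells had 4 of 51 higher, led by the membrane protease Hpn (3.78), and 37 lower (66.3% of all genes called). In nonclassical monocytes 9 were tested between ntCZC and tissue, of which Lrp1 was higher (0.55) and Cd44 (-1.09) and Adam17 (-0.92) were lower, a count near the 30% of all genes called there. No gene of the wider list was called by edgeR between genotypes in any comparison, with 0 to 9 of them at an unadjusted p under 0.05.

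Genes with the pattern most like each member over the 27 tissue classes were sought among 12551 genes, by Pearson's r of log2 levels, as a description over classes that share libraries and depth. Mmp2 was closest to the collagen gene Col1a1 and to Clec3b (both 0.92), Mmp3 to Myoc (0.96) and Has2 (0.94) and Timp1 to Pdgfra (0.85) and Olfml3 (0.83). Mmp12 was closest to Gpnmb (0.95) and Prss46 (0.90), Mmp13 to the complement genes C1qb (0.76) and C1qc (0.73) and Mmp19 to the cathepsin Ctsz (0.87) and Zfp385a (0.86). C1qb and C1qc are markers of the gate that led Mmp13, and Clec3b and Pdgfra of the fibroblast gate, which led Mmp2 and Timp1. The likeness of these pairs is therefore partly set by the gates. Mmp9 had no gene above 0.72 (Gm20406 and Acod1), Mmp14 was close to Calu (0.81) and Timp2 to Pmp22 (0.85) and Adamtsl5 (0.84). Timp3 was closest to Syn3 (0.96), the gene it overlaps on the other strand, and to Col4a1 (0.92).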

How the data were processed

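The 10x Chromium 3' libraries were aligned by the authors to mouse mm10 with Cell Ranger (3.0.2 per the matrix headers, 2.1.1 per the submitters' processing notes), and they deposited UMI counts as whole numbers, 1 matrix per library, without normalization, quality filter or doublet removal. Groups came from the sample titles, except that of tissue null replicate 3, which came from its strain entry. Members and gene lists were chosen with earlier results of these data known.

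Classes were gated on 226 markers of 30 classes after barcodes under 200 genes or over 25% mitochondrial UMIs were dropped: at least 3 markers of 1 class, at most 1 UMI of other lineages' genes, and at least 2 leukocyte or 1 endothelial UMI for those lineages. Counts were summed per library, since cells are not replicates, and tested over all genes with the edgeR 4.0.16 (R 4.3.3, limma 3.58.1) quasi-likelihood test with TMM scaling, filterByExpr and Benjamini-Hochberg adjustment at 0.05, with sex as covariate. Gates were compared within library (library as block), in libraries with at least 20 barcodes of the gate. Shares are given for all barcodes and after thinning to 1000 UMIs (seed 1). Intervals (95%, exact) and floors (3 UMIs) cover counting error only. The fits were tested on simulated data.

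Named genes were all members, up to 3 called genes of the wider list per direction with the lowest adjusted p, less the gate's own markers, and per member the 2 genes most alike over classes of at least 100 barcodes (at least 20 CPM in 1 class, 1 CPM added before logs). Alternatives were DESeq2 1.42.0, another scaling, no filter, no sex term, a replicate block, stricter or looser gates, comparison within a lineage and leaving out libraries. Tables were handled in Python 3.11.15 with numpy 2.4.6, pandas 2.3.3 and scipy 1.17.1. Hashtag counts were not used here. Some genes that the rule for named genes selects are not reported here.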

Additional observations from a re-analysis of the deposited data

Results flagged for a closer look

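Some values lay far from the rest of their group by Dixon's test at the 95% level. Of 33 groups of 4 to 10 libraries with members looked at, 7 were so marked, and chance marks about 1 in 20. Mmp12 was at 19.97 CPM in ntCZC null replicate 1, where the other null libraries lay between 0 and 1.67 CPM, and 1 barcode gave 27 of the 28 UMIs of that library. Tissue wt replicate 2, the library with the most UMIs in total, held 3 of the values: Mmp12 at 322 CPM (others 15.3 to 57.3), Mmp13 at 15.1 CPM (others 6.10 to 7.92) and Timp1 at 14.5 CPM (others 1.65 to 3.62). It also held Mmp14 in smooth muscle or pericytes at 140 CPM (others 0 to 51.7). Tissue wt replicate 1 held Timp3 at 1228 CPM (others 461 to 680.3) and Mmp13 in C1q macrophages at 244 CPM (others 17.4 to 128). In 1 of the tissue libraries without a group, Mmp2 was at 11.1 CPM and Mmp19 at 58.7 CPM, above the wt tissue ranges of 2.19 to 6.33 and 18.8 to 39.0 CPM.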

How the results depend on the processing

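Over the 65 called results of single members, 514 refits gave 493 with the same direction and side of the threshold, 13 no longer past it and 8 in the other direction. Those that leave out tissue wt replicate 2 or the C1q and peritoneal macrophage gates were chosen after seeing the data. Leaving out the macrophage gates turned Timp2 between ntCZC and tissue to -1.13. Comparing a gate with its own lineage turned Mmp19 in fibroblasts to 1.08, in smooth muscle or pericytes Mmp14 to -2.25, Mmp2 to -3.85, Timp1 to -2.36, Timp2 to -2.75 and Timp3 to -0.11, in C1q macrophages Mmp2 to 1.78 and Timp1 to 1.65, Mmp2 in alveolar macrophages to 0.14, Timp3 in neutrophils to 1.41 and Mmp12 in proximal tubule cells to 0.076. Leaving out tissue het replicate 1 turned Mmp9 in C1q macrophages of het against wt to -0.28 (3.65 without het replicate 2). The counts of members called that follow are given without the share of all genes called in each refit. They therefore cannot tell a change in the members from a change over all genes. The number of members called within a lineage was 2 in endothelial cells, 4 in neutrophils and 4 in proximal tubule cells. Between ntCZC and tissue it was 5 without the sex term, in which fewer genes were tested, and 7 to 8 when libraries were left out. With DESeq2 it was 5 in smooth muscle or pericytes and 1 each for ntCZC het, tissue null, tissue het and endothelial het against wt. Without a filter on low counts it was 1 for ntCZC het, 3 for fibroblast het, 2 for C1q macrophage het and 5 for nonclassical monocytes between ntCZC and tissue, and in these monocytes it was 2 with 4 markers or with 50% mitochondrial UMIs. For ntCZC het against wt it was 0 to 1 when libraries were left out. Deviations of same-numbered libraries had correlations of -0.299 to 0.166 between genotypes of 1 kind. They were -0.0373 to 0.0663 in the 6 pairs of an ntCZC and a tissue library of 1 genotype. Values from groups of 2 libraries mirror each other, so this check can hardly show a pairing. A number need not name an animal, since ntCZC het replicate 1 was 610 days old and tissue het replicate 1 was 551 days old. In both kinds wt replicate 1 came from a male of 571 days, and whether it was 1 animal was not tested. A replicate block gave 9 called members between ntCZC and tissue and 2 in nonclassical monocytes, with 0 between genotypes. The causes of these changes were not tested. ntCZC levels under about 1 CPM rest on 0 to 3 UMIs per library, and het and null tissue groups hold 2 libraries each.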

Other observations

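The pair of tissue libraries without a group, whose title and strain named different genotypes, gave the members as follows. The male library had 4.54 CPM of Mmp2, 0.790 of Mmp3, 9.32 of Mmp9, 25.9 of Mmp12, 7.11 of Mmp13, 15.3 of Mmp14 and 25.8 of Mmp19. Its inhibitors were at 4.34 CPM for Timp1, 79.2 for Timp2 and 415 for Timp3. The female library had 2.95 CPM of Mmp3, 18.9 of Mmp9, 10.6 of Mmp12, 6.07 of Mmp13 and 14.3 of Mmp14, with 3.83 CPM of Timp1, 149 of Timp2 and 543 of Timp3. Like the 9 tissue libraries with a group, both held all 10 genes.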
